A study of Mus musculus with 6 samples.

Results

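The BTG, TOB and FOXO quiescence genes are 10 genes whose products hold lymphocytes out of division or out of growth: Btg1, Btg2, Btg3, Tob1, Tob2, Foxo1, Foxo3, Foxp1, Ccng2 and Txnip. They were chosen by name, with earlier results of these data known. All 10 were found among the 17546 genes of the deposited table. All 10 passed the filter on low counts that left 13325 genes for the test. The cells were group 2 innate lymphoid cells (ILC2s), lymphocytes that lack antigen receptors and secrete type 2 cytokines, sorted from lungs of BALB/c mice. One group, Yoda1 4, 5 and 6, received 10 µM Yoda1, an opener of the calcium-permeable mechanosensitive channel Piezo1, for 24 h, and the other, DMSO 1, 2 and 3, received the solvent DMSO over the same time. Both groups share the other treatment steps that are stated. The mice were given IL-33 as 3 injections of 1 µg each, and the sorted cells were kept in 10 ng/mL IL-2 and 10 ng/mL IL-7. The DMSO cells had therefore been exposed to activating cytokines too, and they are not a resting state. The mice's age and sex were not stated, and the series' design text calls the solvent group PBS where the sample labels say DMSO.

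BTG and TOB proteins share a domain through which they bind the deadenylases CNOT7 and CNOT8 of the CCR4-NOT complex, and this shortens the poly(A) tails of mRNAs and lowers their stability. In mouse T cells BTG1 and BTG2 keep resting cells quiescent in this way. FOXO transcription factors switch on genes of cell cycle arrest, trafficking and survival, and they are pushed out of the nucleus when growth factors and cytokines activate PI3K and AKT, so their activity need not follow their transcript level. FOXP1 maintains quiescence of naive T cells in the mouse, cyclin G2 is an atypical cyclin linked to arrest, and TXNIP binds thioredoxin and limits glucose uptake.

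Of the 10 genes, 1 rose with Yoda1, none fell and 9 did not pass edgeR's quasi-likelihood test, with p-values adjusted after Benjamini and Hochberg over all tested genes and a threshold of 0.05. The gene that rose was Btg2, by a factor of 1.5, a call that was lost whenever 1 of the 6 libraries was left out. This stands against a background of 1.49% of all tested genes past the threshold in either direction and 0.57% called higher. At an unadjusted p under 0.05 there were 3 of 10, Btg2 higher and Tob2 and Txnip lower, where 14.5% of all tested genes were under that value. The libraries of both groups did not overlap for 2 of the 10, Btg2 and Tob2, and this was so for 22.6% of all tested genes. The log2 fold changes of Yoda1 over DMSO were positive for 7 genes and negative for 3, ran from -0.73 to 0.58 and had a median of 0.08, beside a median of 0.01 over all tested genes. DESeq2 and limma voom each called Btg2 and no other of the 10, against 6.35% and 2.25% of all genes called by these tools.

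**Figure D1:**
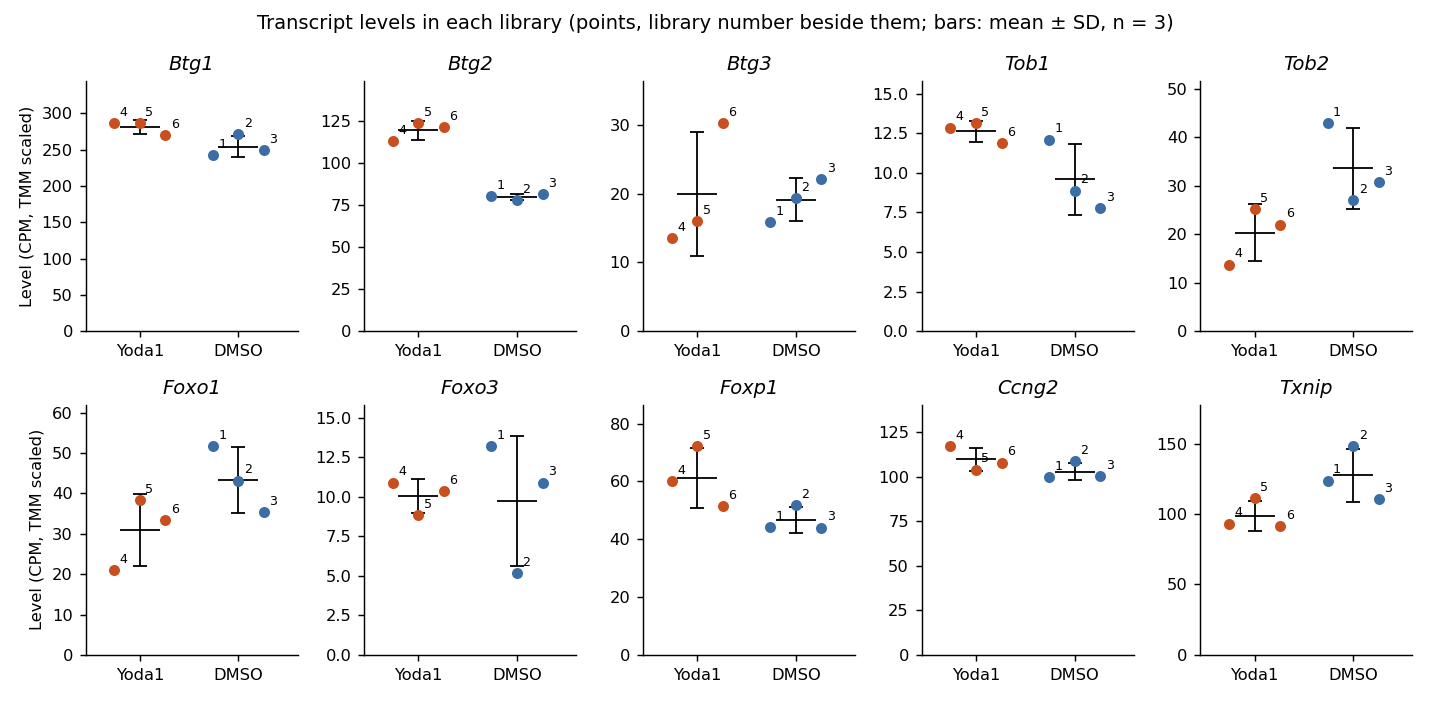
Level of each gene (y axis, CPM scaled by TMM factors) in each library, with the 3 Yoda1 libraries left and the 3 DMSO libraries right; points carry the library number and bars give mean ± SD. The Yoda1 libraries of Btg2 lie between 113 and 124 CPM, all above its DMSO libraries, and those of Tob2 all lie below its DMSO libraries.

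The libraries held 14214048 to 31627519 counts, DMSO 2 being the deepest, and the 10 genes had at least 110 counts in every library. Levels are given as CPM, in which each count is divided by its library's total after TMM scaling, unless stated otherwise. The labels name no separate mice or cultures for the libraries within a group. DMSO 2 and 3, like Yoda1 4 and 5, share a number in their labels, so p-values measure a spread that may be technical. The label suffix is 0 in DMSO 1 and 2 and another number in DMSO 3 and all Yoda1 libraries. It is thus partly confounded with treatment, and what it stands for is not given. Of 15 ILC2 markers all had counts in every library, with Gata3 at 766 to 1042 CPM of all counts in the Yoda1 libraries and 924 to 986 in the DMSO libraries, while Thy1, which ILC2s usually carry on their surface, was at or below 2.89 CPM of all counts in each. The summed markers of 3 other lineages separated the groups, though single markers within them did not all do so. The 11 epithelial markers in the table summed to 62.6 to 79.9 CPM of all counts in the Yoda1 libraries and 96.1 to 431 in the DMSO libraries. Much of this came from the club cell gene Scgb1a1, which was at 0.0585 CPM of all counts in Yoda1 6 and at 0 in Yoda1 4 and 5, against 302 CPM in DMSO 2, 293 CPM in DMSO 3 and 0 in DMSO 1. Most of the epithelial sum of the Yoda1 libraries was Epcam, at 48.8 to 70.1 CPM of all counts, against 64.6 to 67.8 in the DMSO libraries. The 6 macrophage and granulocyte markers summed to 19.0 to 23.8 CPM of all counts with Yoda1 and 11.1 to 13.7 with DMSO. Lyz2 and Cd68 made up most of these sums, and Cd68 overlapped between groups. Adgre1 went the other way, at 0 in all Yoda1 libraries and up to 1.68 CPM of all counts in the DMSO libraries. The 4 T cell markers summed to 29.3 to 37.8 CPM of all counts with Yoda1 and 44.9 to 51.1 with DMSO, and Cd3d was at or below 1.55 in each library. The B cell, NK cell and stromal sums overlapped between groups. Of 15 tested ILC2 markers 2 fell and none rose in edgeR, where 0.923% of all tested genes fell. Those that fell were the costimulatory receptor gene Icos and the IL-2 receptor gene Il2ra, by 0.89 and 0.67 on the log2 scale. At an unadjusted p under 0.05 in edgeR, 4 of the 15 were higher and 4 lower, where the background was 7.39% and 7.11%. The groups did not overlap for 10 of the 15, and for 22.6% of all tested genes. DESeq2 called 3 higher and 3 lower, and voom 2 higher and 3 lower. None of the 5 epithelial, 2 macrophage, 3 T cell, 2 B cell, 1 NK cell and 1 stromal markers that could be tested passed in edgeR or voom. Before adjustment Sftpa1, a surfactant gene, was lower and Lyz2, a lysozyme gene, higher (p below 0.05 each in edgeR). DESeq2, run without the filter on low counts, gave p-values for 11 epithelial and 6 macrophage markers. It called 4 of the 11 lower and 1 of the 6 higher, against 6.35% of all genes called. The part of these markers in the results below was not tested, except where a value without the libraries concerned is given. In bulk RNA, fewer cells that express a gene and less RNA per cell cannot be told apart.

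Btg2, an antiproliferative gene that is also induced early by growth signals and by p53, was at 113, 124 and 121 CPM in Yoda1 4, 5 and 6, against 80.2, 78.0 and 81.5 CPM in DMSO 1, 2 and 3. Every Yoda1 library was above every DMSO library, and the gaps within a group were small, with a coefficient of variation of 4.73% in Yoda1 libraries and 2.24% in DMSO libraries. The log2 change was 0.58 (standard error, SE, 0.11, 95% interval 0.32 to 0.84, Benjamini-Hochberg adjusted p = 0.0493 in edgeR), the 194th smallest p of the 13325 genes. The size held in each of 16 alternative settings, where it ran from 0.53 to 0.62, but the call held in only 4 of them, which were RLE factors, DESeq2, limma voom and a filter of 10 CPM in 3 libraries that left 5.26% of its genes called. It did not pass in any of the 6 edgeR fits that left out 1 library, with adjusted p from 0.0636 without Yoda1 6 to 0.239 without DMSO 2. With DMSO 1 alone as control, the DMSO library in which Scgb1a1 was at 0, the log2 change was 0.57 (adjusted p = 0.849 in edgeR), and with DMSO 3 alone, the only DMSO library whose label suffix is not 0, it was 0.55 (adjusted p = 0.727). Btg2 lies on chromosome 1 at 134075170 to 134079120, minus strand (GRCm38).

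Btg1, its closest relative, was the most abundant of the 10 genes per kilobase of exon. It was at 286, 287 and 270 CPM in Yoda1 4, 5 and 6, against 242, 271 and 250 CPM in DMSO 1, 2 and 3. The groups overlapped, since DMSO 2 was slightly above Yoda1 6. The log2 change was 0.15 (SE 0.09, 95% interval -0.07 to 0.36, adjusted p = 0.534 in edgeR), an interval that ends below the 0.58 measured for Btg2. Whether the changes of Btg1 and Btg2 differ was not tested. The ratio of Btg2 CPM to Btg1 CPM, which does not depend on how libraries are scaled, was 0.396, 0.432 and 0.449 in Yoda1 4, 5 and 6, against 0.331, 0.288 and 0.327 in DMSO 1, 2 and 3. The ratios of the groups did not overlap, and neither did the levels of Btg2 alone. How often the ratios of other gene pairs do not overlap was not measured. Even with all libraries taken as separate samples, an exact permutation test of 3 against 3 cannot give a two-sided p below 0.10, so none is read from this. Btg1 lies on chromosome 10 at 96617006 to 96622809, plus strand.

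Btg3, a family member that also restrains E2F1, was at 13.6, 16.04 and 30.3 CPM in Yoda1 4, 5 and 6, against 15.9, 19.4 and 22.1 CPM in DMSO 1, 2 and 3. The Yoda1 group spanned the whole DMSO group because Yoda1 6 was 2.24 times Yoda1 4. The log2 change of 0.06 (SE 0.33, 95% interval -0.68 to 0.81, adjusted p = 0.960 in edgeR) turned to -0.37 without Yoda1 6. The interval covers changes of either sign for Btg3, and it is not a limit of what could be detected.

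The bases just upstream of Btg2, Btg1 and Txnip are shown because they were the only member promoters to match one of 4 motifs searched on both strands. The motifs were GTAAACA (FOXO), CACGTG (E-box), TGACGTCA (CRE, the site of CREB and ATF factors) and TGANTCA (AP-1). The 250 bases before the transcription start were read for all 10 genes, in 13 windows because Btg3 has 2 starts and Foxp1 has 3 (RefSeq, GRCm38.p6). Capitals mark the match.
Btg2, chr1:134079156-134079405, minus strand: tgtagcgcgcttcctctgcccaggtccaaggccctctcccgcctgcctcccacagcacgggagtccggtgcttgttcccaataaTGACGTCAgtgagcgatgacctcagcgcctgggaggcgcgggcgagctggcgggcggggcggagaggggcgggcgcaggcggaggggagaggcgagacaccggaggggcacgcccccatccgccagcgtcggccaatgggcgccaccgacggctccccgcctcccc
Btg1, chr10:96616751-96617000, plus strand: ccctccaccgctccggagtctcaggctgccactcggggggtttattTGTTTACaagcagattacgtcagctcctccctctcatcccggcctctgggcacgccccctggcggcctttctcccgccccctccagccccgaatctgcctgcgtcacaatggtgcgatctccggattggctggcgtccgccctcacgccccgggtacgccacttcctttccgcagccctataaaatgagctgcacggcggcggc
Txnip, chr3:96557707-96557956, plus strand: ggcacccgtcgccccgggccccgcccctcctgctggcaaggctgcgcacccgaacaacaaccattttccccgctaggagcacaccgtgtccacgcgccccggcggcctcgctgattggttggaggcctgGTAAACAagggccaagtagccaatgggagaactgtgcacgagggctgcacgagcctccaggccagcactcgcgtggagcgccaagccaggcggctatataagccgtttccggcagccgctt
The Btg2 window held the CRE letters from 166 to 159 bases before the start, a match found in 1.55% of 32851 promoter windows of the same length. The Btg1 and Txnip windows each held the FOXO letters, at 204 to 198 and at 121 to 115 bases before the start, found in 3.17% of all windows. None of the 13 windows held the E-box or the AP-1 letters, which occurred in 6.02% and 6.75% of all windows. Btg1 and Txnip thus share a motif that the other 8 genes lacked in these windows, while their log2 changes were 0.15 and -0.37.

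The TOB genes had changes of opposite sign, neither past the test. TOB proteins carry the BTG domain and, beyond it, a tail that binds the poly(A)-binding protein. Tob1, best known as a brake on T cell activation, was at 12.8, 13.2 and 11.9 CPM in Yoda1 4, 5 and 6, against 12.1, 8.87 and 7.78 CPM in DMSO 1, 2 and 3. DMSO 1 lay within the Yoda1 range and the other DMSO libraries below it. The log2 change was 0.40 (SE 0.28, 95% interval -0.23 to 1.03, adjusted p = 0.566 in edgeR). It ran from 0.06 with DMSO 1 alone as control to 0.70 with the label suffix as a term, was 0.69 with DMSO 3 alone, 0.60 without DMSO 1 and 0.26 without DMSO 3, and passed in none of the 16 alternatives.

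Tob2 was at 13.7, 25.2 and 22.02 CPM in Yoda1 4, 5 and 6, against 43.0, 27.0 and 30.8 CPM in DMSO 1, 2 and 3. All Yoda1 libraries were below all DMSO libraries, but Yoda1 5 and DMSO 2 were close, and each group spread more than 1.5-fold. The log2 change of -0.73 was the largest in size of the 10 and did not pass (SE 0.28, 95% interval -1.37 to -0.08, adjusted p = 0.288 in edgeR, unadjusted p = 0.0320). It stayed negative in all 16 alternatives, from -1.09 with DMSO 1 alone as control to -0.51 without DMSO 1, and passed in none. The ratio of Tob1 CPM to Tob2 CPM was 0.934, 0.523 and 0.539 in Yoda1 4, 5 and 6, against 0.281, 0.328 and 0.253 in DMSO 1, 2 and 3. Every Yoda1 ratio was above every DMSO ratio, with means of 0.666 ± 0.233 in Yoda1 libraries and 0.287 ± 0.038 in DMSO libraries (SD, n = 3 each). This pair was set side by side after its values were seen. Tob1 lies on chromosome 11 at 94211454 to 94215495 and Tob2 on chromosome 15 at 81848272 to 81858796.

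**Figure D2:**
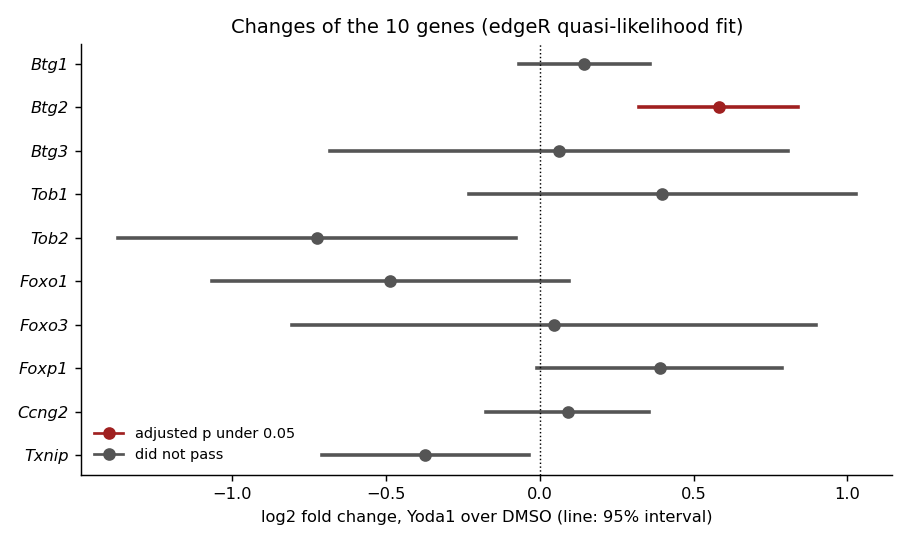
log2 fold change of Yoda1 over DMSO for each gene (x axis), with its 95% interval from the edgeR fit. Btg2, at 0.58, is the one gene past the threshold; Tob2 and Txnip have intervals below 0 but did not pass after adjustment over all genes.

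Among the forkhead genes none passed. Foxo1, the main FOXO factor of mouse T cells, where it sustains Klf2 and Il7r, was at 21.1, 38.3 and 33.5 CPM in Yoda1 4, 5 and 6, against 51.7, 43.2 and 35.4 CPM in DMSO 1, 2 and 3. The groups overlapped through Yoda1 5 and DMSO 3. The log2 change was -0.49 (SE 0.26, 95% interval -1.07 to 0.09, adjusted p = 0.430 in edgeR). It was -0.27 without Yoda1 4, its lowest library, -0.19 with the label suffix as a term, -0.20 with DMSO 3 alone as control and -0.75 with DMSO 1 alone, and it passed in none. Foxo1 shared with Tob2 its lowest library, Yoda1 4, and its highest, DMSO 1.

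Foxo3, the second FOXO factor, was the least abundant of the 10 per kilobase of exon. It was at 10.9, 8.83 and 10.4 CPM in Yoda1 4, 5 and 6, against 13.2, 5.17 and 10.9 CPM in DMSO 1, 2 and 3. The Yoda1 libraries lay inside the wide DMSO range, in which DMSO 1 was 2.55 times DMSO 2. The log2 change of 0.05 (SE 0.37, adjusted p = 0.975 in edgeR) became -0.26 without DMSO 2 and 0.33 without DMSO 1, so Foxo3 has no stable direction here. Its 95% interval, -0.81 to 0.90, covers changes as large as those of any other gene of the group. The ratio of Foxo1 CPM to Foxo3 CPM was 1.935, 4.34 and 3.224 in Yoda1 4, 5 and 6. It was 3.916, 8.341 and 3.247 in DMSO 1, 2 and 3, and the groups overlapped.

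Foxp1 was at 60.0, 72.1 and 51.5 CPM in Yoda1 4, 5 and 6, against 44.3, 51.7 and 44.1 CPM in DMSO 1, 2 and 3. The groups met at Yoda1 6 and DMSO 2 and were otherwise apart. The log2 change was 0.39 (SE 0.18, 95% interval -0.01 to 0.79, adjusted p = 0.351 in edgeR), positive in all 16 alternatives, lowest at 0.26 without Yoda1 5, and past the threshold in none. Foxo1 lies on chromosome 3 at 52268336 to 52353221, Foxo3 on chromosome 10 at 42181841 to 42276755 and Foxp1 on chromosome 6 at 98925338 to 99522721.

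Ccng2, whose transcript FOXO factors raise in other cells, was among the steadiest genes. It was at 117, 104 and 108 CPM in Yoda1 4, 5 and 6, against 99.5, 109 and 100.3 CPM in DMSO 1, 2 and 3. The groups overlapped, and the log2 change was 0.09 (SE 0.12, adjusted p = 0.775 in edgeR). The 95% interval of -0.17 to 0.36 overlaps that of Btg2, 0.32 to 0.84. Whether the changes of Ccng2 and Btg2 differ was not tested. Ccng2 lies on chromosome 5 at 93267257 to 93276231.

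Txnip was at 93.2, 111.1 and 91.3 CPM in Yoda1 4, 5 and 6, against 124, 148 and 110.8 CPM in DMSO 1, 2 and 3. Yoda1 5 and DMSO 3 were nearly equal and all other Yoda1 libraries were below all DMSO libraries. The log2 change was -0.37 (SE 0.15, 95% interval -0.71 to -0.03, adjusted p = 0.296 in edgeR, unadjusted p = 0.0345). It was negative in all 16 alternatives, between -0.47 and the -0.17 reached both with the label suffix as a term and with DMSO 3 alone as control, and passed in none. Txnip lies on chromosome 3 at 96557957 to 96561883.

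**Figure D3:**
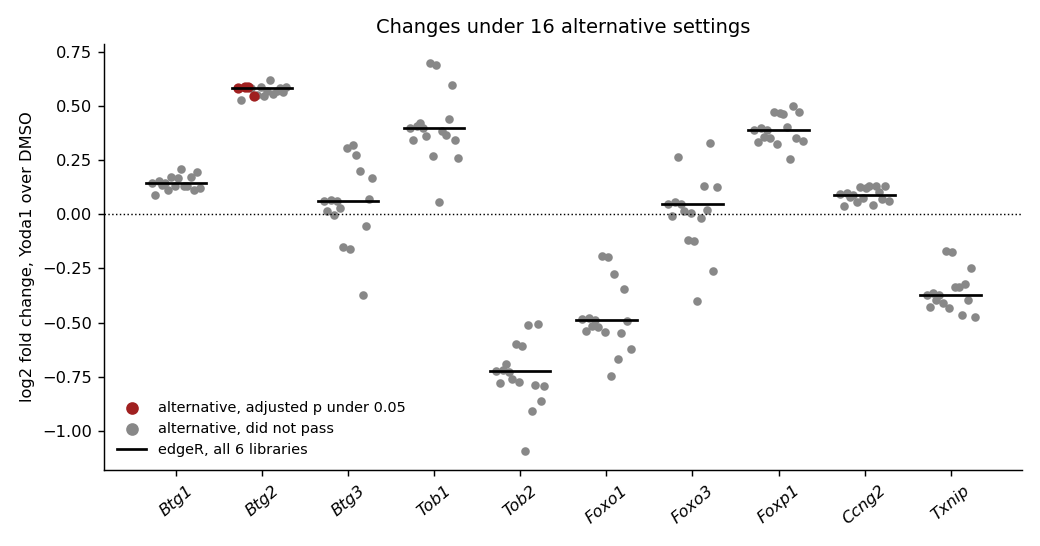
log2 fold change of each gene (y axis) under 16 alternative settings (points, red where the adjusted p was under 0.05) beside that of the edgeR fit of all 6 libraries (black line). Btg2 stays between 0.53 and 0.62 with 4 calls, while Btg3 and Foxo3 lie on both sides of 0.

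Levels of different genes were compared as CPM per kilobase of exon, taking all annotated exons of a gene together, which understates genes with many alternative exons such as Foxp1. On this scale Btg1 led in both groups, at 53.3 ± 1.8 in Yoda1 libraries and 48.2 ± 2.8 in DMSO libraries (SD, n = 3 each). Btg2 came second with Yoda1, at 43.6 ± 2.1, and Txnip next, at 31.6 ± 3.5. With DMSO these exchanged places, Txnip being second at 40.8 ± 6.0 and Btg2 next at 29.1 ± 0.7, and the ranges of Btg2 and Txnip were apart in each group. Ccng2 followed in both, at 20.1 ± 1.2 with Yoda1 and 18.8 ± 0.9 with DMSO. A gap then separated 5 genes, Tob1, Btg3, Foxp1, Foxo1 and Tob2, which lay between 3.05 and 5.52 on average with Yoda1 and between 3.39 and 5.04 with DMSO. Neighbours in this block overlapped in each group, so the order of neighbours is not resolved. Further apart, the Tob1 range lay above those of Foxo1 and Tob2 with Yoda1. With DMSO the Foxp1 range lay below those of Btg3, Foxo1 and Tob2. Foxo3 was last and apart from the block in both, at 1.33 ± 0.14 with Yoda1 and 1.29 ± 0.55 with DMSO. Foxo1 was above Foxo3 in every library on this scale, least so in Yoda1 4, at 2.44 and 1.44 CPM per kb, and most so in DMSO 2, at 4.98 and 0.683. Summed over the 10 genes, the level of all counts was 735 to 800 CPM with Yoda1 and 689 to 762 with DMSO.

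**Figure D4:**
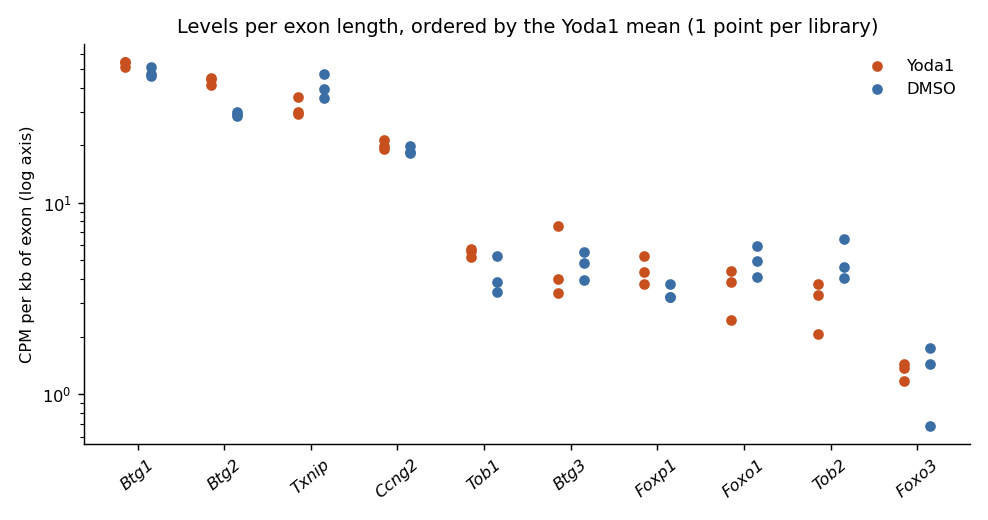
Level per kilobase of exon (log y axis) of each gene in each library, ordered by the Yoda1 mean from left to right. Btg1, Btg2, Txnip and Ccng2 lie above 18 CPM per kb in every library and the other genes below 8.

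The profiles most like those of the 3 genes with the smallest p were sought among 9127 genes of at least 5 CPM, by the root mean square difference of log2 CPM over the 6 libraries after each profile was centred on its mean. Nearest to Btg2 were Maf1, which encodes a repressor of RNA polymerase III, at 0.044, Cept1, a phospholipid synthesis gene, at 0.052, and Gpr107 at 0.056. Of these Maf1 passed (log2 change 0.53, adjusted p = 0.0493 in edgeR), and Cept1 and Gpr107 did not, at 0.60 and 0.62. Nearest to Tob2 were Mllt6, Dusp7 and Fbxw9, at the larger distances of 0.13, 0.13 and 0.15. Nearest to Txnip were Ralgapa1, Apex1 and Pdss1, each at 0.07. Such likeness over 6 libraries in 2 groups is a description and carries no test.

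The partners and neighbours of these genes were read from lists of related genes. None of 15 genes of the CCR4-NOT and PAN2-PAN3 deadenylases and poly(A)-binding proteins passed in edgeR, DESeq2 or voom, with a median log2 change of -0.07. The smallest p among them was that of Cnot8, one of the deadenylases that BTG and TOB proteins bind, at 153 ± 9 CPM with Yoda1 and 122 ± 9 CPM with DMSO (log2 change 0.32, adjusted p = 0.243 in edgeR). Cnot3, another subunit gene of the CCR4-NOT complex, was at 16.2 ± 4.1 CPM with Yoda1 and 25.2 ± 4.4 CPM with DMSO (adjusted p = 0.302 in edgeR). At an unadjusted p under 0.05 this list had 1 gene higher and 2 lower, where the background was 7.39% and 7.11%.

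Upstream of FOXO, none of 23 genes of PI3K, AKT, SGK and the 14-3-3 proteins that hold FOXO in the cytoplasm passed in edgeR or voom, and the median log2 change was -0.08. Before adjustment 2 were lower with p below 0.05, and 1 of these passed in DESeq2. The 14-3-3 gene Ywhab was at 550 ± 19 CPM with Yoda1 and 659 ± 37 CPM with DMSO, and Ywhaz at 1252 ± 65 CPM and 1402 ± 6 CPM in the same order (adjusted p = 0.177 and 0.313 in edgeR). Downstream, none of 18 tested reported FOXO targets passed in edgeR, 9 being positive and 9 negative, with a median of 0.01. Before adjustment 3 had p below 0.05 and were higher, and 2 were lower. Those past the threshold were 2 higher and 1 lower of 19 in DESeq2, and 1 lower of 18, Il7r, in voom. Il7r, the IL-7 receptor chain, was at 100.2 ± 9.1 CPM with Yoda1 and 155 ± 17 CPM with DMSO (log2 change -0.63, adjusted p = 0.0611 in edgeR), and it passed in 4 of 16 alternatives. Klf2, a regulator of lymphocyte trafficking and quiescence, had the other sign, at 14.4, 22.3 and 16.5 CPM in Yoda1 4, 5 and 6, against 11.7, 7.95 and 9.98 CPM in DMSO 1, 2 and 3, with all Yoda1 libraries above all DMSO libraries. Its log2 change was 0.85 (SE 0.28, adjusted p = 0.202, unadjusted p = 0.0148 in edgeR) and did not pass. In the same list the groups also did not overlap for Sesn1, at 0.65, and Ccr7, at -1.30 (unadjusted p = 0.00820 and 0.0181 in edgeR). S1pr1, another gene of trafficking, was at 0.08. The groups did not overlap for 5 of these 18 targets, and this was so for 22.6% of all tested genes. Klf2, Sesn1, Ccr7 and S1pr1 fall outside the rule for named genes and were added after their values were seen. The catalase gene Cat was at 178 ± 6 CPM with Yoda1 and 134.5 ± 10.5 CPM with DMSO (log2 change 0.41, adjusted p = 0.121 in edgeR). Of the other BTG, FOXO, FOXP and cyclin G genes, 4 of 7 listed were in the table and none of these passed under any of the 3 tools or had p below 0.05 before adjustment, Foxp4 being at 1.98 ± 1.05 CPM with Yoda1 and 0.951 ± 0.660 CPM with DMSO and Foxp3 at 4.66 ± 2.74 and 5.81 ± 1.63 CPM.

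Among 21 other quiescence factors of lymphocytes and DREAM complex genes, Slfn2, which keeps mouse T cells quiescent, rose and 20 did not pass. It was at 291, 262 and 262 CPM in Yoda1 4, 5 and 6, against 179, 163 and 156 CPM in DMSO 1, 2 and 3. The groups were well apart, and the log2 change was 0.71 (SE 0.10, adjusted p = 0.0163 in edgeR). The call held in 8 of 16 alternatives and was lost without Yoda1 5, DMSO 1, DMSO 2 or DMSO 3 (highest adjusted p of these 0.137 in edgeR). The median of that list was -0.04. Before adjustment 3 genes were higher and 3 lower with p below 0.05 in edgeR, where the background was 7.39% and 7.11%. The groups did not overlap for 9 of the 21, and for 22.6% of all tested genes. In DESeq2 2 genes passed as higher and 2 as lower.

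Around Txnip, none of 12 tested genes of thioredoxin, its reductase, related arrestins and glucose transporters passed in edgeR or voom, while 2 were higher with p below 0.05 before adjustment, and 2 passed as higher in DESeq2. Arrdc3, an alpha-arrestin like Txnip, was at 32.2 ± 0.4 CPM with Yoda1 and 18.6 ± 4.6 CPM with DMSO (log2 change 0.79, adjusted p = 0.144 in edgeR), the other sign from Txnip. Txnrd1 was at 712 ± 91 CPM with Yoda1 and 559 ± 30 CPM with DMSO (adjusted p = 0.170 in edgeR). Of 15 p53 targets none passed in edgeR, with a median of -0.03. Higher was 1 gene by p before adjustment, 1 in DESeq2 and 1 in voom. Perp, a p53 effector in cell death, was at 10.0 ± 2.6 CPM with Yoda1 and 2.94 ± 1.53 CPM with DMSO (adjusted p = 0.102 in edgeR), and Mdm2 at 185 ± 23 CPM with Yoda1 and 152 ± 15 CPM with DMSO (adjusted p = 0.356 in edgeR). Of 16 immediate early genes, with which Btg2 is often grouped, the edgeR test called none. Before adjustment 3 had p below 0.05 on the higher side and 1 on the lower. As higher, 3 of 17 passed in DESeq2 and 1 of 16 in voom. Egr1 was at 109.5 ± 10.5 CPM with Yoda1 and 72.2 ± 6.1 CPM with DMSO (log2 change 0.60, adjusted p = 0.0750 in edgeR), close to the size measured for Btg2. Nr4a1 was at 35.2 ± 1.8 CPM with Yoda1 and 18.9 ± 3.4 CPM with DMSO (log2 change 0.90, adjusted p = 0.0771 in edgeR). The immediate early list had 9 positive and 7 negative changes and a median of 0.04.

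A list of cell cycle genes was set beside the 10 quiescence genes. It was chosen with earlier results of these data known, so its share of calls beside the background is a description. Of 21 tested, 7 fell and none rose, where 0.923% of all tested genes fell, and 20 had a negative log2 change, with a median of -0.48. Plk1, a mitotic kinase, was at 140 ± 11 CPM with Yoda1 and 282 ± 10 CPM with DMSO (log2 change -1.01, SE 0.10, adjusted p = 0.00497 in edgeR). Ccnb1 and Top2a fell by 0.98 and 0.88 on the log2 scale. Without 1 library the count that fell ran from 0 without DMSO 3 to 7 without Yoda1 6. It was 15 of 22 in DESeq2, 8 of 21 in voom, and 0 with the label suffix as a term and with summed libraries. At least 20 changes were negative in each of these settings, and also with DMSO 1 alone or DMSO 3 alone as control. The count was 2 without Yoda1 5, without DMSO 1 or without DMSO 2. The difference between this list and the 10 quiescence genes was not tested.

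**Figure D5:**
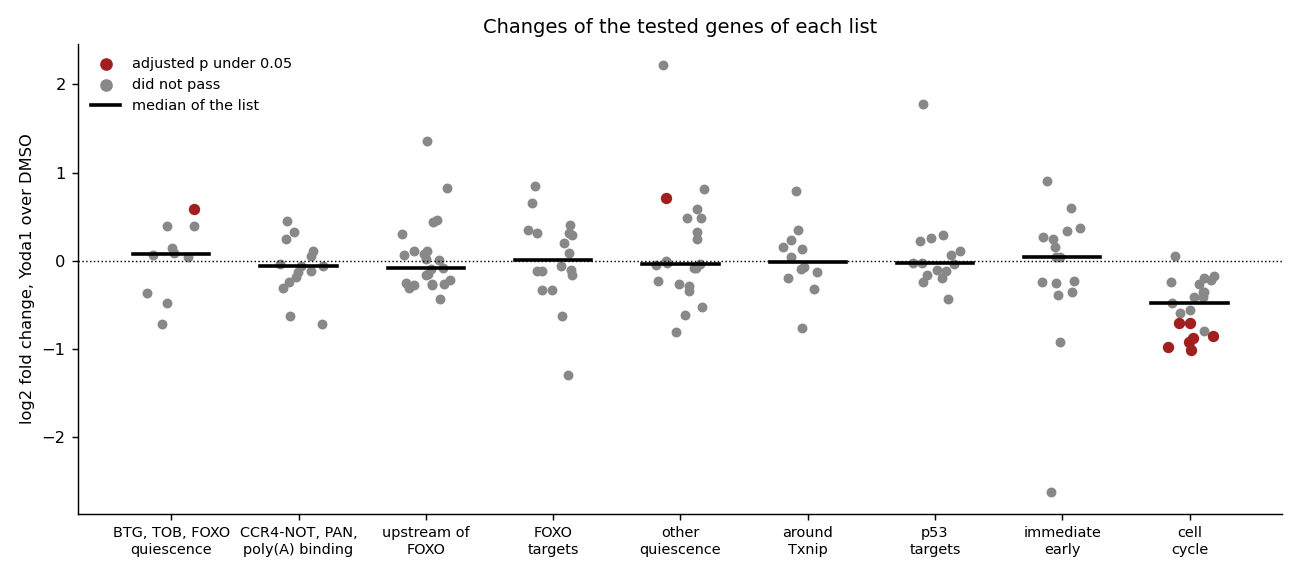
log2 fold change of Yoda1 over DMSO (y axis) of each tested gene in 9 lists, red where the adjusted p was under 0.05, with the median of each list as a black bar. The cell cycle list has 7 red points, all below 0, and a median of -0.48, while the medians of the other lists lie between -0.08 and 0.08.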

How the data were processed

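The authors deposited expected counts, estimates of the reads per gene that can hold fractions, in 1 table of 6 libraries and 17546 genes. Per the submitters' processing notes the build was mm10, and the table's name gives Partek software. Not given in the sources used here are the aligner, counting method, strand setting and annotation, so overlapping genes may share reads. From 57.1% to 66.5% of values per library were whole within 0.001. Library totals were 14214048 to 31627519. In the shallowest library a gene at 0 may be at up to 0.211 CPM, a limit of 3 counts that covers counting error alone. Libraries within a group differed beyond sampling noise (chi-square over degrees of freedom at least 18.11).

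Counts were rounded. Genes were filtered with filterByExpr of edgeR 4.0.16 (R 4.3.3) at a minimum count of 10 and a minimum total of 15, scaled by TMM, and fitted by quasi-likelihood (glmQLFit, then glmQLFTest) with treatment as the only term. Benjamini-Hochberg adjustment ran over 13325 genes, with a threshold of 0.05. The SE is the log2 change divided by the square root of F, in size, and intervals use its t quantile at 95%. The script was tested on simulated data. Alternatives were RLE and upper quartile factors, DESeq2 1.42.0, limma 3.58.1 voom, filters, the label suffix, summed or selected libraries, and each library left out. Gene positions and exon lengths were taken from GENCODE M21 (GRCm38, equivalent to mm10). The rule for named genes took all 10 members and up to 3 genes per related list with the smallest p past the threshold (or 2 where none passed). It also took 3 nearest profiles each for 3 members, leaving out predicted genes. Scgb1a1, Epcam, Gata3, Thy1, Adgre1 and Cd3d were named as markers. Members and lists were chosen with earlier results of these data known.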

Additional observations from a re-analysis of the deposited data

How the results depend on the processing

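Genes named by the rule above kept their direction in most settings, with the following exceptions. Btg3 changed by -0.0039 in limma voom, -0.15 with the label suffix as a term and -0.16 with libraries of a suffix other than 0 alone, and ran from -0.37 to 0.28 with 1 library left out. Foxo3 changed by -0.0068 with upper quartile factors, -0.12 in both suffix settings and -0.40 with DMSO 1 alone as control, and ran from -0.26 to 0.33 with 1 library left out. With the suffix as a term and within the suffix, Foxp3 was at 0.18 in both, Cd28 at 0.023 and 0.017, and Cd79b at 0.23 and 0.22. With 1 library left out, Foxp3 ran from -0.88 to 0.00048, Cd79b from -0.34 to 0.052 and Prf1 from -0.050 to 1.22. The cause was not tested.

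The count of 1 higher among the 10 genes became 0 with upper quartile factors, no filter, the suffix as a term, summed libraries, the suffix other than 0, DMSO 1 alone, and each library left out (lowest and highest 0). Over all genes, 76 were higher and 123 lower, and with upper quartile factors 57 and 174. Higher and lower were 422 and 496 in DESeq2, 158 and 290 with the 10 CPM filter, 2 and 1 with the suffix term, 1 and 0 with summed libraries, 1 and 1 within the suffix, and 0 and 0 with DMSO 1 alone. There were 121 higher in voom and 50 with no filter. With 1 library left out, 4 to 74 were higher and 5 to 146 lower. Fits with 1 DMSO library take its spread from the Yoda1 libraries. The fit with the suffix as a term and the fit within the suffix both set DMSO 3 against the Yoda1 libraries, so they are not separate checks. No paired analysis was possible because the labels number the libraries 1 to 3 and 4 to 6.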
